A study of Mus musculus with 112 samples.

Results

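The transcripts described here are those of 31 genes that carry fatty acids into the skeletal muscle fibre and through mitochondrial oxidation. They were chosen by name, by their known step, with earlier results of these data known. The shares of all genes given beside their counts are therefore descriptive. They were grouped as 5 genes of uptake, trapping and droplet storage, 5 of the carnitine shuttle, 12 of beta-oxidation, 3 of electron transfer and 6 that control fuel choice or serve side steps. All 31 were among the 32544 gene symbols of the deposited count tables, and all 31 were among the 11886 that passed a filter on low counts. RNA came from the gastrocnemius, a calf muscle, of 56 Diversity Outbred mice aged 16 weeks, a stock bred from several founder strains so that no mouse is a copy of another. For 3 weeks 1 limb of each mouse was immobilized by a cast. Sequencing of both limbs gave 112 libraries in 4 groups of 28: female control, female immobilized, male control and male immobilized limbs. The cast was on the right in every animal, so side and treatment cannot be told apart, and all control limbs are the uncast left limbs of casted mice. The question of the series is how muscle differs after immobilization and whether the sexes differ in it.

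Muscle takes fatty acids from the blood after lipoprotein lipase has freed them from circulating fat, binds them in the cytosol and activates them to acyl-CoA. The carnitine shuttle moves the acyl group into the mitochondrion, and repeated rounds of dehydrogenation, hydration, a further dehydrogenation and thiolysis shorten it and release acetyl-CoA. Electrons from the acyl-CoA dehydrogenases pass through the electron transfer flavoprotein to the respiratory chain, and slow, oxidative fibres are known to hold more of this machinery than fast ones.

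Total counts ran from 1716485 to 9995936 per library, with a median of 4395118. In 10 libraries of 10 animals Acta1, the actin of the skeletal muscle fibre, stood below 50% of its median of 31492 CPM (the count per 1000000 counts of the library, scaled by TMM): 4 immobilized and 3 control limbs of females, and 1 immobilized and 2 control limbs of males. The lowest of them, the control limb of male 52, had 3.45 CPM of Acta1. The summed level of 10 adipocyte markers had a median of 4694 CPM (500.1 to 22302) in these 10 libraries and 296.6 CPM (99.0 to 5846) in the other 102, and that of 10 T, B and NK cell markers 480.0 CPM (22.0 to 1596) against 1.34 CPM (0 to 175). Between immobilized and control limbs of all animals, in the mean of the sexes, 9 of 9 macrophage, 6 of 7 Schwann cell and 2 of 8 fibroblast markers rose (9, 7 and 4 without the low Acta1 animals), while 0 of 8 general fibre (2 rose without those animals), 0 of 5 red blood cell and 0 of 3 tested brown fat markers changed; their part in the changes of the 31 genes was not tested. Of all genes, 9.58% rose and 10.4% fell with all animals, and 16% rose and 16.5% fell without the low Acta1 animals. Results are given with all 56 animals and with the 46 that had no low Acta1 limb. These are bulk tissue samples, in which fewer cells of a type and less RNA per cell cannot be told apart.

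Most of the 31 transcripts were less abundant in the immobilized limb. In the mean of the female and male effects, 26 of 31 fell and 0 rose at an adjusted p of at most 0.05 by edgeR, where 10.4% of all genes tested fell and 9.58% rose. All 31 log2 fold changes lay below 0, with a median of -0.40, while 49% of all tested genes lay below 0 and their median was 0.01. The falls ran from 51.0% for Fabp3, the heart and muscle fatty acid binding protein, to 12.1% for Slc22a5, the carnitine transporter of the cell membrane. By step, 5 of 5 uptake genes fell (median log2 fold change -0.80), 4 of 5 carnitine shuttle genes (-0.25), 11 of 12 beta-oxidation genes (-0.35), 2 of 3 electron transfer genes (-0.50) and 4 of 6 control and side step genes (-0.40). The 5 that did not pass were Crat (-0.22), Eci2 (-0.14), Etfb (-0.07), Mlycd (-0.15) and Ucp3 (-0.16).

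**Figure D1:**
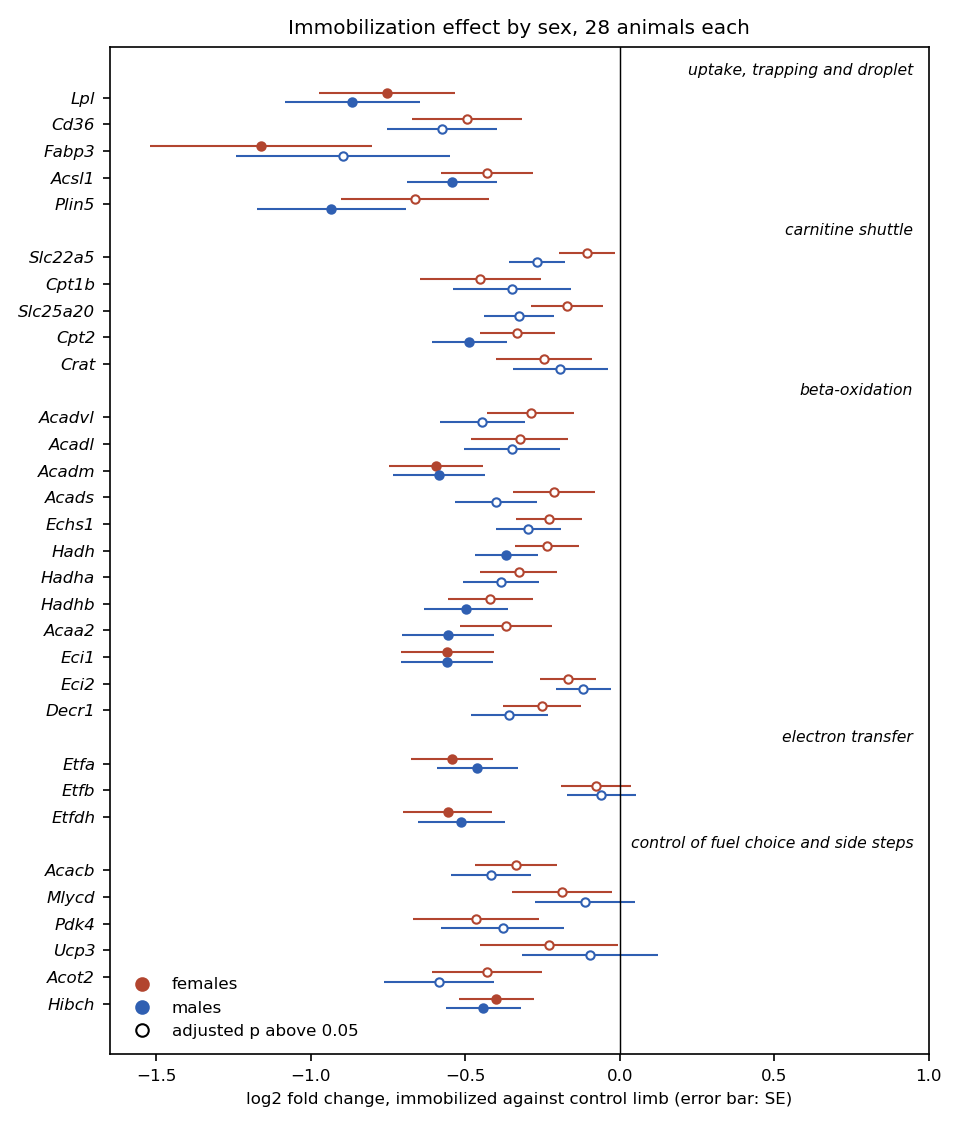
Log2 fold change of the immobilized against the control limb (horizontal axis) for each of the 31 genes by step, with females in red and males in blue, each point with an SE derived from the edgeR fold change and F, and open where the adjusted p is above 0.05. All points lie left of 0, Fabp3, Lpl and Plin5 furthest, and Etfb sits next to 0 in both sexes at -0.08 and -0.06.

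Promoter sequences of 26 of the 31 genes were matched by symbol in RefSeq for build GRCm38.p6; Acaa2, Cpt1b, Crat, Decr1 and Lpl had no entry. The 250 bases before the annotated start were searched on both strands for AGGTCA, the core motif bound by nuclear receptors such as the PPARs and the estrogen-related receptors, since those factors are known regulators of fatty acid oxidation. It was found in 6 of the 26 (23.1%): Acadm, Acadvl, Cd36, Echs1, Plin5 and Ucp3. Of all 32851 promoter windows of the same length, 14.0% held it. The share of members counts a gene if any of its windows held the motif. The share of all counts single windows, so these are unlike measures. The direct repeat of AGGTCA with 1 base between was in 0 of the 26 and in 0.0335% of all windows, and the longer form TNAAGGTCA, which contains AGGTCA, in 0 of the 26 and in 1.14% of all windows. These are matches of letters in a short window and describe no binding. The windows are shown for the 5 of the 6 genes with the smallest p for immobilization, because they are members that fell and hold the motif. They lie at chr3:153944644-153944893 (Acadm), chr17:56117549-56117798 (Plin5), chr5:17835897-17836146 (Cd36), chr11:70015429-70015678 (Acadvl) and chr7:140116422-140116671 (Echs1), all on the minus strand, and are written 5′ to 3′ along the gene, ending at the base before the start. Capitals mark AGGTCA, or TGACCT where it reads on the other strand.
Acadm: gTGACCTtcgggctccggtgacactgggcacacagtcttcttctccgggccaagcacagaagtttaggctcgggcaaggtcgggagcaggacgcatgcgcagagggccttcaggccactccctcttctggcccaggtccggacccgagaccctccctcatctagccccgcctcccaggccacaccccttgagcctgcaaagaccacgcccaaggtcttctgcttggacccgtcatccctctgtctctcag
Plin5: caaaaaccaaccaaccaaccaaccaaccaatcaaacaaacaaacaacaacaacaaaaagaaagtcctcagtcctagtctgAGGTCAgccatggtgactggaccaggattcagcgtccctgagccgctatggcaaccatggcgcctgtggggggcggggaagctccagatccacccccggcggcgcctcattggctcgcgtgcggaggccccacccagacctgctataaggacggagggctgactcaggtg
Cd36: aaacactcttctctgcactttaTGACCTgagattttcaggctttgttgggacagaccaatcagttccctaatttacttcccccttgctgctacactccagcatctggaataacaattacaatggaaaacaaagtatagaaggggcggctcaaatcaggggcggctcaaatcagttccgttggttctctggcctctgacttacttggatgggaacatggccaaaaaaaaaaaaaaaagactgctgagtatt
Acadvl: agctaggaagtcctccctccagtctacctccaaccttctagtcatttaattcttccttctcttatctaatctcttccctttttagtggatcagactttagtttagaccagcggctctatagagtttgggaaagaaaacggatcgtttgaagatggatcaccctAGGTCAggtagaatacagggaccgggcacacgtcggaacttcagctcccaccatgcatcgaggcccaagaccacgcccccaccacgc
Echs1: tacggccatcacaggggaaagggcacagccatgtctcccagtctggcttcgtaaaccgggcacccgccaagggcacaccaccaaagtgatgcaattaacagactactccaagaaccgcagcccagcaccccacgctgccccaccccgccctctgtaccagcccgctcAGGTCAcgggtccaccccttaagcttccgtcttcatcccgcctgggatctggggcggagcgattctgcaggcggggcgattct

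The motif began 249 bases before the start in Acadm, 228 in Cd36, 170 in Plin5, 87 in Acadvl and 83 in Echs1, so the 5 windows share the letters and not the place. Their log2 fold changes, from -0.26 for Echs1 to -0.80 for Plin5, lay within the range of the other members. Hadha and Hadhb, the subunits of the trifunctional protein, start 273 bases apart on opposite strands of chromosome 5, so the windows before their starts face each other. They fell by 0.36 and 0.46 on the log2 scale.

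All 5 uptake genes fell, and 3 of them, Fabp3, Lpl and Plin5, had the largest falls of the 31. Lpl, the lipase that frees fatty acids from circulating lipoproteins, had a median of 870 CPM in female control limbs (191 to 2326) and of 510 CPM in female immobilized limbs (201 to 1399). In males the medians were 839 CPM (203 to 4353) in control and 451 CPM (153 to 1297) in immobilized limbs. The ranges of the groups overlapped, and the highest value of each control group came from an animal with a low Acta1 limb, female 48 and male 52. Within animals Lpl was lower in the immobilized limb of 44 of 56, and its log2 fold change was -0.81 ± 0.15 (SE; edgeR adjusted p = 0.00029). Cd36, the fatty acid translocase of the cell membrane, went from a median of 329 CPM (85.6 to 601) to 198 CPM (89.0 to 646) in females. In males it went from 344 CPM (139 to 2234) to 237 CPM (63.5 to 719), again with male 52 at the top of the control limbs and with overlapping groups. The log2 fold change was -0.53 ± 0.13 (adjusted p = 0.0024), lower in 42 of 56 animals.

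Fabp3 spread more widely between animals than any other uptake gene in both control groups. It had a median of 503 CPM in female control limbs (21.3 to 1154) and of 183 CPM in female immobilized limbs (15.0 to 504). In male control limbs it had a median of 504 CPM (15.5 to 1386), and in male immobilized limbs of 237 CPM (23.0 to 563). The lowest value of every group was a low Acta1 limb (females 48 and 2, males 52 and 35), and the groups overlapped over most of their range. Its log2 fold change was -1.03 ± 0.25 (adjusted p = 0.003), lower in 41 of 56 animals. Acsl1, the acyl-CoA synthetase that activates long-chain fatty acids, had medians of 315 CPM (57.1 to 481) and 210 CPM (108 to 433) in female control and immobilized limbs. Male control limbs had a median of 288 CPM (144 to 1855) and male immobilized limbs of 192 CPM (87.3 to 347). It was lower in the immobilized limb of 46 of 56 animals, a log2 fold change of -0.49 ± 0.10 (adjusted p = 0.00097), although the group ranges overlapped.

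Plin5, a coat protein of lipid droplets that lie against mitochondria, had medians of 21.0 CPM (3.47 to 44.5) and 12.8 CPM (3.55 to 34.6) in female control and immobilized limbs, and of 29.3 CPM (2.39 to 90.8) and 13.8 CPM (1.41 to 34.5) in male ones. The groups overlapped, with male 52 highest among the control limbs and male 35 lowest among the immobilized ones, both with a low Acta1 limb. The log2 fold change was -0.80 ± 0.17 (adjusted p = 0.0009), lower in 42 of 56 animals. Where 10.4% of all genes fell and 9.58% rose, 1 of 11 other genes of uptake and binding fell and 0 rose. That gene was Slc27a1, a fatty acid transport protein (-0.30, adjusted p = 0.039); the next by p were Gpihbp1, which anchors lipoprotein lipase to capillaries (-0.21, adjusted p = 0.13), and Got2 (-0.27, adjusted p = 0.20).

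**Figure D2:**
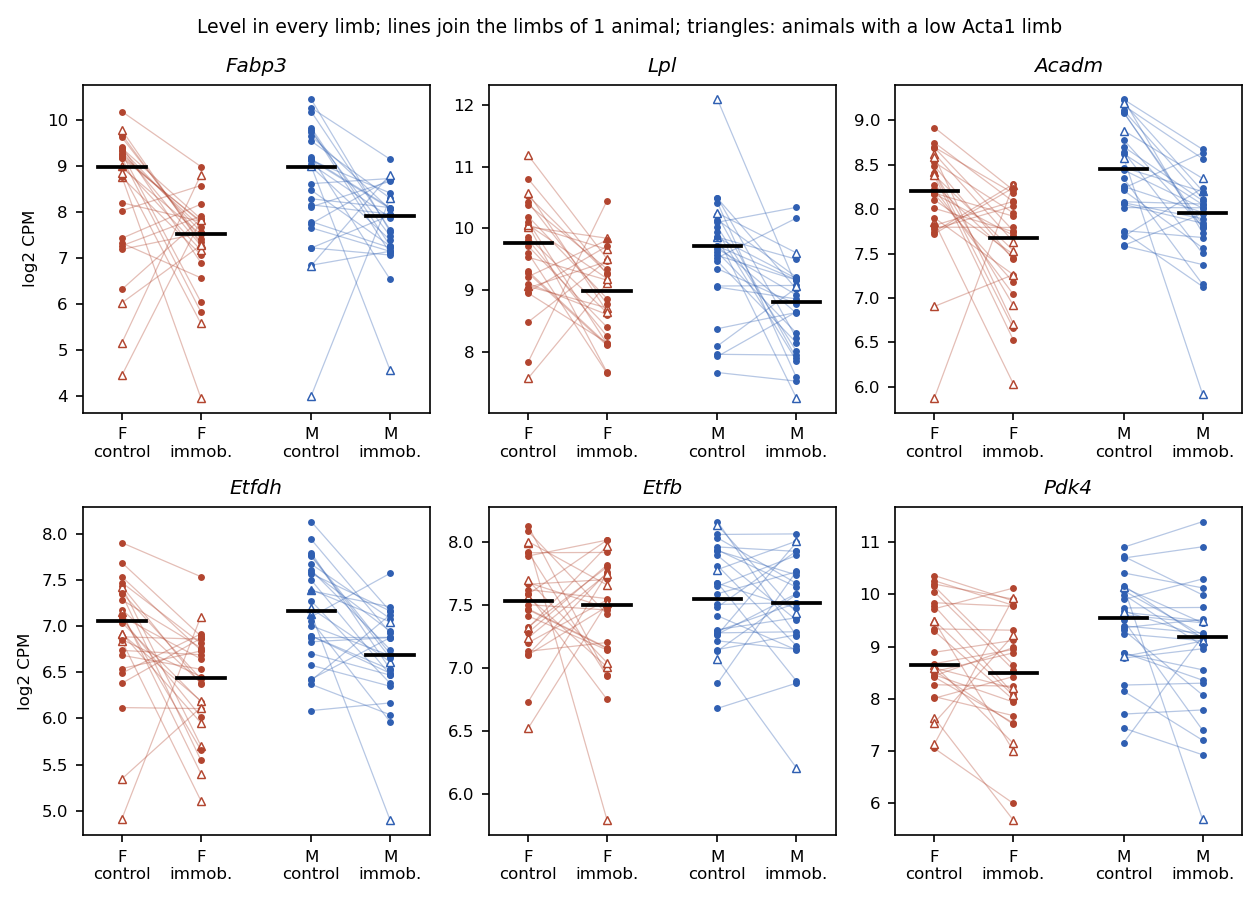
Level in log2 CPM (vertical axis) of 6 genes in every limb of 28 females (F, red) and 28 males (M, blue), with lines joining the limbs of 1 animal, black bars at the group medians and open triangles for animals with a low Acta1 limb. Fabp3, Lpl, Acadm and Etfdh are lower in most immobilized limbs with overlapping groups, Etfb has nearly level medians, and Pdk4 keeps much of its order between the limbs.

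Uptake genes are also expressed by fat cells and capillaries. None of 10 adipocyte markers passed the test; their summed level had medians of 423 and 626 CPM in female control and immobilized limbs (99.0 to 9725 and 148 to 5846), and of 255 and 233 CPM in male ones (131 to 22302 and 135 to 5688). It was higher in the immobilized limb of 16 of 28 females and 10 of 28 males. Of 10 capillary endothelium markers, 5 fell, beside 10.4% of all genes. They were led by Kdr (-0.47, edgeR adjusted p = 0.00097) and Ptprb (-0.37, adjusted p = 0.0017). The sum of the 10 was lower in 16 of 28 females and 17 of 28 males. Without the low Acta1 animals 2 of the 10 fell and 2 rose, where 16.5% of all genes fell and 16% rose. None of either list's markers was at 0 throughout. The part of capillaries in the fall of Lpl and Cd36 was not tested. With the change in the adipocyte sum as a term in the model, 26 of 31 members fell against 13.9% of all genes, and Lpl (-0.82), Cd36 (-0.54), Acsl1 (-0.49) and Plin5 (-0.80) were within 0.01 of their values without it. Fabp3 moved more, from -1.03 to -0.98.

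Of the 5 carnitine shuttle genes 4 fell, with log2 fold changes from -0.41 to -0.19. Cpt2, the transferase of the inner mitochondrial membrane that re-forms acyl-CoA, had medians of 78.3 CPM (22.7 to 128) and 60.6 CPM (27.1 to 90.4) in female control and immobilized limbs, and of 74.6 CPM (33.2 to 206) and 55.2 CPM (21.0 to 94.7) in male ones. The groups overlapped, and within animals it was lower in 44 of 56 immobilized limbs, with a log2 fold change of -0.41 ± 0.09 (adjusted p = 0.00083). Slc25a20, the exchanger of acylcarnitine for carnitine, had female medians of 69.0 CPM (28.5 to 107) and 59.9 CPM (30.3 to 85.0). Its male medians were 75.2 CPM (43.0 to 174) and 65.3 CPM (30.2 to 87.5), and it was lower in 37 of 56 animals (-0.25 ± 0.08, adjusted p = 0.024). Cpt1b, the muscle form of the outer-membrane transferase and the site at which malonyl-CoA inhibits the pathway, had a larger fold change but a larger error (-0.40 ± 0.14, adjusted p = 0.031). In 43 of 56 animals the immobilized limb was the lower one.

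Slc22a5 had medians of 10.8 CPM (7.08 to 14.1) and 10.4 CPM (5.79 to 13.5) in female control and immobilized limbs, and of 9.69 CPM (7.47 to 19.1) and 7.90 CPM (5.48 to 16.4) in male ones. It had the narrowest spread of the members described by group in female limbs and in male control limbs, and its log2 fold change was -0.19 ± 0.06 (adjusted p = 0.031), lower in 35 of 56. Crat, which makes short-chain acylcarnitines and buffers acetyl-CoA, did not pass with all animals (-0.22 ± 0.11, adjusted p = 0.15) and passed among the 46 without a low Acta1 limb (-0.18, adjusted p = 0.0071). Of 7 other carnitine genes tested, 1 fell and 1 rose, where 10.4% of all genes fell and 9.58% rose. They were Tmlhe, the dioxygenase that begins carnitine synthesis (-0.45, adjusted p = 0.0017), and Cpt1c, a brain form of the transferase (0.46, adjusted p = 0.048). Slc22a4 did not pass (-0.35, adjusted p = 0.10).

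Of the 12 beta-oxidation genes, 11 fell. Acadm, the medium-chain acyl-CoA dehydrogenase, had the smallest p of the 31 genes: its median was 295 CPM in female control limbs (58.2 to 484) and 203 CPM in female immobilized limbs (65.0 to 311). In males it was 351 CPM (192 to 603) in control and 248 CPM (59.9 to 408) in immobilized limbs. The lower ends came from low Acta1 limbs (females 26 and 2, male 35) except among male control limbs, where male 12 was lowest. It was lower in the immobilized limb of 47 of 56 animals, with a log2 fold change of -0.59 ± 0.11 (adjusted p = 0.00012). The other dehydrogenases fell less: Acadvl, for very long chains, by 0.37 (adjusted p = 0.0064), Acadl, for long chains, by 0.34 (adjusted p = 0.025), and Acads, for short chains, by 0.31 (adjusted p = 0.016). Differences among the 4 dehydrogenases were not tested.

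Eci1, an isomerase that lets unsaturated fatty acids enter the cycle, had medians of 81.2 CPM (18.7 to 159) and 58.6 CPM (19.0 to 93.4) in female control and immobilized limbs and of 94.9 CPM (49.7 to 154) and 64.8 CPM (7.60 to 97.5) in male ones. In 46 of 56 animals it was lower in the immobilized limb (-0.56 ± 0.11, adjusted p = 0.00026). Eci2, a related isomerase of mitochondria and peroxisomes, was lower in 30 of 56 and did not pass (-0.14 ± 0.06, adjusted p = 0.10). The change in the ratio of Eci1 to Eci2 within animals, a comparison chosen after these values were seen, was -0.42 ± 0.07 on the log2 scale, lower in 47 of 56 animals. Its permutation p by random sign changes was 1e-05, two-sided, the smallest that 100000 resamples can give, and 1e-05 after adjustment over the 3 such ratios tested. Without the low Acta1 animals the change was -0.40 ± 0.05, lower in 40 of 46. A ratio of this kind depends little on the library scaling. The pairs were chosen from these same values, and the adjustment over 3 ratios does not cover that choice. The p-values of the ratios are therefore descriptive and are no independent test.

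The later steps of the cycle fell together. Hadhb, the thiolase subunit of the trifunctional protein for long chains, had medians of 471 CPM (118 to 752) and 325 CPM (120 to 545) in female control and immobilized limbs. The male medians were 484 CPM (263 to 1007) and 345 CPM (107 to 494), and its log2 fold change was -0.46 ± 0.10 (adjusted p = 0.00087; lower in 41 of 56). Acaa2, the thiolase for shorter chains, went from 176 CPM (51.7 to 273) to 120 CPM (43.7 to 221) in females and from 168 CPM (69.3 to 542) to 120 CPM (68.4 to 203) in males. Its log2 fold change was -0.46 ± 0.11 (adjusted p = 0.0017), lower in 42 of 56 animals. Hadh, the dehydrogenase that acts on hydroxyacyl-CoA of medium and short chains, had female medians of 191 CPM (71.3 to 318) and 161 CPM (64.7 to 252). In males these were 211 CPM (121 to 425) and 165 CPM (107 to 281), a log2 fold change of -0.30 ± 0.07 (adjusted p = 0.003; lower in 40 of 56). Hadha fell by 0.36, Echs1, the hydratase for short chains, by 0.26, and Decr1, the reductase for certain unsaturated chains, by 0.30, each with an adjusted p between 0.0034 and 0.012. In all of these the ranges of the 4 groups overlapped.

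The counts in this paragraph stand beside 10.4% of all genes that fell and 9.58% that rose. Of 13 further genes of mitochondrial beta-oxidation, 5 fell and 0 rose. They were led by Ech1, an isomerase for dienoyl-CoA (-0.56, adjusted p = 0.00014), Acat1, the acetoacetyl-CoA thiolase (-0.40, adjusted p = 0.0014), and Flad1, the enzyme that makes the FAD used by the dehydrogenases (-0.25, adjusted p = 0.0014). Of 13 peroxisomal genes, 5 fell and 0 rose, among them the acyl-CoA importer Abcd3 (-0.34, adjusted p = 0.00015) and the multifunctional enzyme Hsd17b4 (-0.42, adjusted p = 0.00023). Of 11 other acyl-CoA synthetases and thioesterases, 4 fell and 0 rose, led by Acss1, the acetyl-CoA synthetase of mitochondria (-0.87, adjusted p = 4e-06), Acss2 (-0.49, adjusted p = 0.0048) and the thioesterase Them4 (-0.35, adjusted p = 0.0081).

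In electron transfer the 3 genes did not move alike. Etfa and Etfb encode the subunits of the electron transfer flavoprotein, a heterodimer, and Etfdh encodes the membrane enzyme that passes its electrons to ubiquinone. Etfa had medians of 211 CPM (47.8 to 328) and 144 CPM (49.5 to 232) in female control and immobilized limbs, and of 217 CPM (102 to 345) and 154 CPM (54.4 to 279) in male ones. It fell by 0.50 ± 0.09 (adjusted p = 0.00018), lower in 45 of 56 animals. Etfdh went from 133 CPM (29.7 to 239) to 86.5 CPM (34.0 to 185) in females and from 143 CPM (67.5 to 281) to 103 CPM (29.3 to 190) in males. It fell by 0.54 ± 0.10 (adjusted p = 0.00023), also lower in 45 of 56. Etfb had medians of 185 CPM (91.4 to 280) and 181 CPM (54.9 to 259) in females and of 187 CPM (102 to 286) and 183 CPM (73.4 to 268) in males. It was lower in 27 of 56 animals, with a log2 fold change of -0.07 ± 0.08 (adjusted p = 0.57).

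The difference between the flavoprotein subunits was tested within animals, as for the isomerases and likewise chosen after the values were seen. The log2 ratio of Etfa to Etfb changed by -0.42 ± 0.07 and was lower in the immobilized limb of 47 of 56 animals (permutation p by sign changes 1e-05, adjusted over the 3 ratios 1e-05). It was lower in 21 of 28 females and 26 of 28 males. The ratio of Etfdh to Etfb changed by -0.45 ± 0.08, lower in 46 of 56 animals (permutation p 1e-05, adjusted 1e-05). Among the 46 animals without a low Acta1 limb both ratios were lower in 40, with changes of -0.41 ± 0.05 and -0.46 ± 0.06.

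Of the 6 genes of fuel choice and side steps, 4 fell. Hibch, a hydrolase of valine breakdown, had medians of 38.8 CPM (10.4 to 60.6) and 29.5 CPM (13.5 to 43.7) in female control and immobilized limbs and of 38.8 CPM (21.6 to 89.8) and 30.5 CPM (5.66 to 66.2) in male ones. It fell by 0.42 ± 0.09 (adjusted p = 0.00062), lower in 46 of 56 animals. Acacb, the acetyl-CoA carboxylase whose malonyl-CoA inhibits Cpt1b, was lower in 48 of 56 animals, the most of any member. Its medians were 246 CPM (49.0 to 414) and 200 CPM (58.3 to 258) in females and 241 CPM (167 to 489) and 209 CPM (49.0 to 333) in males, and it fell by 0.38 ± 0.09 (adjusted p = 0.0035). Mlycd, the decarboxylase that removes malonyl-CoA, did not pass (-0.15 ± 0.11, adjusted p = 0.36; lower in 32 of 56). The maker and the remover of the inhibitor were not tested against each other.

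Pdk4, the kinase that shuts off pyruvate dehydrogenase when fat is burned, fell by 0.42 ± 0.14 (adjusted p = 0.029). Its range was wide in every group, from 132 to 1317 CPM in female control limbs and from 51.1 to 2695 CPM in male immobilized ones. Acot2, a mitochondrial thioesterase, fell by 0.51 ± 0.13 (adjusted p = 0.0035); a closely similar gene, Acot1, could share its reads, so its value is uncertain. Ucp3, an uncoupling protein that rises with fatty acid supply, did not pass (-0.16 ± 0.16, adjusted p = 0.48; lower in 31 of 56). For each list that follows, the share of all genes was 10.4% that fell and 9.58% that rose. Of 15 other genes of malonyl-CoA, AMPK and pyruvate dehydrogenase control, 4 fell and 1 rose. Those with the smallest p were Pdk1 (-0.41, adjusted p = 0.0014), the AMPK subunit Prkaa1 (-0.28, adjusted p = 0.0027) and Pdha1, a pyruvate dehydrogenase subunit (-0.44, adjusted p = 0.003). Of 16 genes of valine and branched-chain amino acid breakdown, the pathway of Hibch, 6 fell and 0 rose, led by Dbt (-0.54, adjusted p = 3e-06), Ppm1k (-0.47, adjusted p = 0.00058) and Aldh6a1 (-0.50, adjusted p = 0.0019). Of 12 genes of triacylglycerol lipolysis and droplets, 6 fell and 0 rose, led by G0s2, an inhibitor of lipolysis (-0.57, adjusted p = 0.0038), Plin4 (-0.36, adjusted p = 0.013) and Plin3 (-0.30, adjusted p = 0.018).

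Among 18 transcriptional and signalling regulators of oxidation, 8 fell and 0 rose, and without the low Acta1 animals 14 fell. Of all genes, 10.4% fell with all animals and 16.5% without the low Acta1 animals. Ppara, the nuclear receptor that responds to fatty acids, fell by 1.25 ± 0.26 (adjusted p = 0.00063), further than any of the 31 members. Sirt3, a mitochondrial deacetylase, fell by 0.45 (adjusted p = 0.0011) and Esrrg, an estrogen-related receptor, by 0.81 (adjusted p = 0.0038). Over the 9 lists of other pathway genes, 40 of 116 tested genes fell and 2 rose, beside 10.4% and 9.58% of all genes. These lists were drawn up with earlier results of these data known.

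In females alone, 7 of 31 members fell, and in males alone 12 of 31, against 2.47% and 1.12% of all genes tested. The 6 that fell in both sexes were Lpl, Acadm, Eci1, Etfa, Etfdh and Hibch. Fabp3 fell in females (-1.16 ± 0.36, adjusted p = 0.047) and did not pass in males (-0.90 ± 0.35, adjusted p = 0.15). Acsl1, Plin5, Cpt2, Hadh, Hadhb and Acaa2 fell in males and did not pass in females. Without the low Acta1 animals Acsl1, Plin5, Cpt2 and Hadhb also passed in females (adjusted p = 0.032, 0.047, 0.043 and 0.022 by edgeR) and Fabp3 in males (adjusted p = 0.0063). The counts in females depended on the fit. With the female libraries fitted alone, 0 of 31 passed by edgeR, where 0.252% of all genes fell. In that fit 17 members had an unadjusted p of at most 0.05, which 20.4% of all genes reached. With the low Acta1 animals left out 13 passed in females and 17 in males, against 9.1% and 4.9% of all genes.

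The difference between the sexes was tested directly. The male minus female effect passed for 0 of the 31 members and for 0% of all genes by edgeR; 0 members and 194 of all genes had an unadjusted p of at most 0.05, and DESeq2 and limma voom also called 0 members. The member with the smallest unadjusted p was Slc22a5 (difference -0.16, 95% interval -0.41 to 0.09, p = 0.2151 by edgeR, adjusted p = 1.00), with effects of -0.11 in females and -0.27 in males. For Acadm the difference was 0.01 with an interval of -0.40 to 0.42, and for Fabp3 it was 0.27 with an interval of -0.70 to 1.23. All 31 intervals held 0, 9 of them reached below -0.5 and 5 above 0.5, so differences of that size in those genes are within their intervals.

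The sexes were also compared within each kind of limb. In control limbs 0 of 31 members passed, where 1.73% of all genes did. An unadjusted p of at most 0.05 was reached by 14.5% of all genes and by 3 members: Slc25a20 (0.30 higher in males, edgeR adjusted p = 0.22), Acadm (0.34, adjusted p = 0.23) and Pdk4 (0.48, adjusted p = 0.34). All 31 were above 0 in males against females, with a median of 0.20, where 52.6% of all genes were below 0. Without the low Acta1 animals the median was 0.11 and 6 members were below 0. In immobilized limbs 0 of 31 passed, where 4.33% of all genes did, and 8 members were below 0. An unadjusted p of at most 0.05 was reached by 21% of all genes and by 2 members: Cpt1b (0.35, adjusted p = 0.21) and Acadm (0.29, adjusted p = 0.22). DESeq2 and limma voom also called 0 members in either limb.

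Animals differed in size and in direction. The median change over the 31 genes was below 0 in 44 of 56 animals, 21 of 28 females and 23 of 28 males. All 31 were lower in 7 animals, at least 25 were lower in 34, and at most 6 were lower in 6. The animal medians ran from -2.19 in male 35, whose immobilized limb was low in Acta1, to 1.86 in female 26, whose control limb was. Those limbs also held the extremes of single genes: male 35 was lowest among the male immobilized limbs for 28 of 31 members, female 26 among the female control limbs for 24, and female 2, with a low Acta1 immobilized limb, among the female immobilized limbs for 20. Males 15 and 16 were opposite extremes, with 31 and 0 of 31 members lower. Over all genes tested, the control limb of male 15 correlated more with the immobilized limb of male 16 (r = 0.56) than with its own (0.06), and that of male 16 more with the limb of male 15 (0.51) than with its own (0.19). Both were kept as labelled, and without them 26 of 31 members fell in the mean of the sexes, 7 in females and 13 in males. Of all genes, 10.4%, 2.43% and 1.01% fell in those fits. Among the 46 animals without a low Acta1 limb the medians ran from -1.26 to 0.62 and were below 0 in 36.

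**Figure D3:**
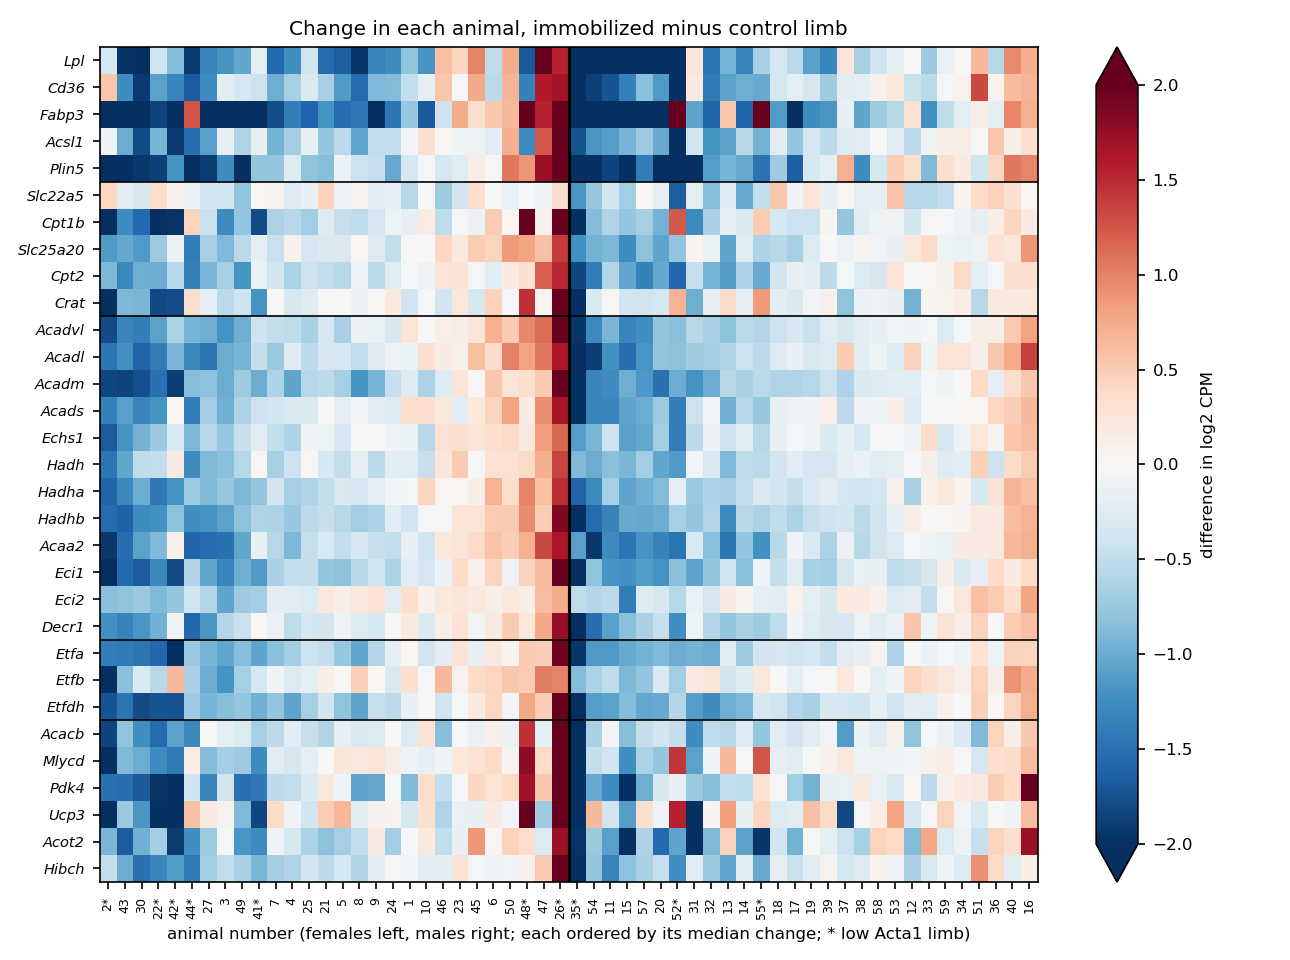
Change in log2 CPM, immobilized minus control limb (blue lower, red higher, colours ending at -2 and 2), for each of the 31 genes (rows, by step) in each of 56 animals (columns, females left and males right, ordered by median change, with * for a low Acta1 limb). Most columns are mainly blue, with at least 25 genes lower in 34 animals and all 31 lower in 7. In 12 animals the median is above 0, and Fabp3 and Lpl carry the strongest colours.

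Without the 10 animals with a low Acta1 limb, 26 of 31 members fell and 0 rose, against 16.5% of all genes that fell. Of these, 25 were the same members as with all animals; Crat was gained, and Acadl no longer passed (-0.26, adjusted p = 0.052). The fold changes were smaller for 30 of 31 members, with a median of -0.33 in place of -0.40, and Fabp3 was the exception at -1.11 (adjusted p = 9.7e-06). The SE was smaller for 29 of 31 members, Lpl and Eci2 being the exceptions. For Cpt1b the adjusted p went from 0.031 to 2.6e-05 at nearly the same fold change (-0.40 and -0.38).

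Slow fibre markers were set beside these results. The sum of 8 slow fibre markers, such as the slow myosin chain Myh7, had medians of 4563 and 2820 CPM in female control and immobilized limbs (158 to 12141 and 252 to 13728) and of 3625 and 2107 CPM in male ones (128 to 13705 and 170 to 7761). It was lower in the immobilized limb of 17 of 28 females and 17 of 28 males. With all animals 1 of the 8 markers fell, Atp2a2 (-0.80, edgeR adjusted p = 0.017), beside 10.4% of all genes. Without the low Acta1 animals 4 of the 8 fell, beside 16.5% of all genes. With the change in this sum as a term in the model, an alternative added after the data were seen, 22 of 31 members fell against 8.73% of all genes, and the median log2 fold change was -0.31. Cpt1b (adjusted p = 0.078), Slc25a20 (0.058), Acadl (0.057) and Pdk4 (0.071) no longer passed. Fabp3 moved most, from -1.03 to -0.66 (adjusted p = 0.0014). With this term and without the low Acta1 animals, 20 of 31 fell against 15.1% of all genes, with a median of -0.25.

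**Figure D4:**
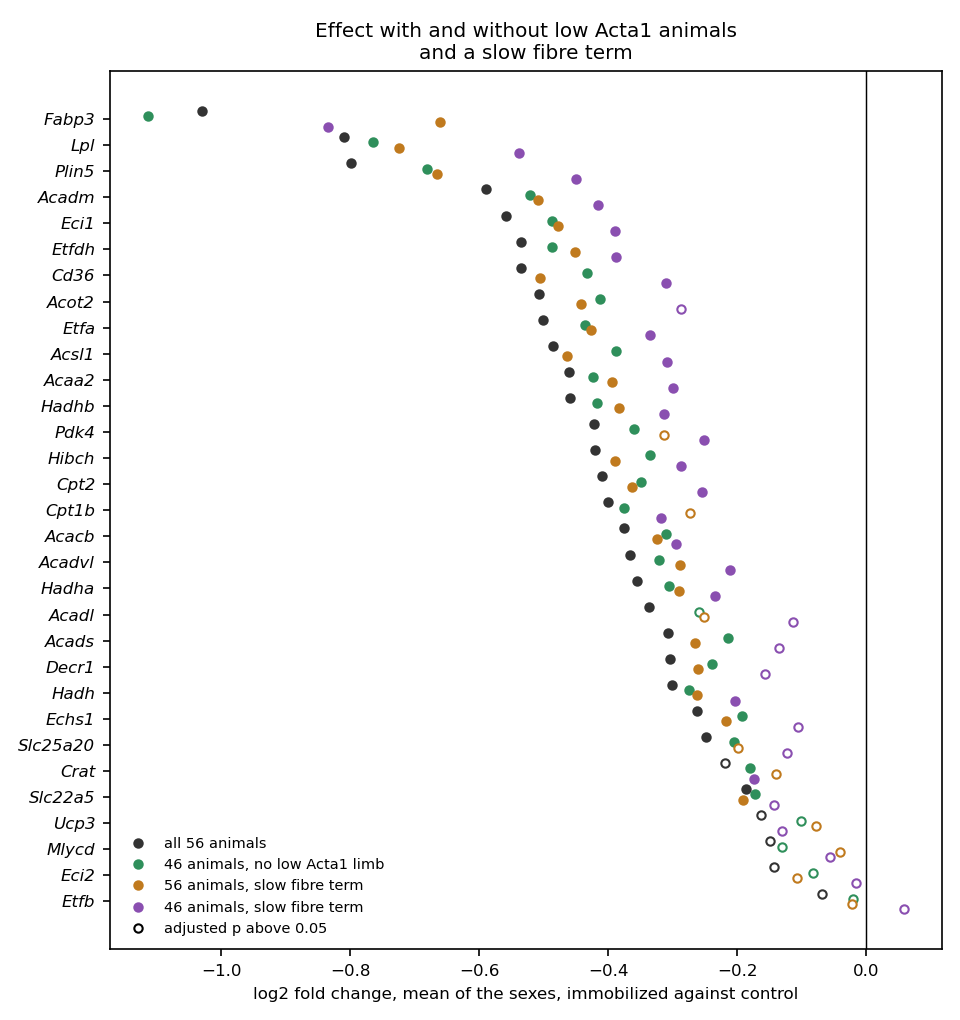
Log2 fold change of the immobilized against the control limb, mean of the sexes (horizontal axis), for each of the 31 genes under 4 fits: all 56 animals (black), the 46 without a low Acta1 limb (green), and each with a slow fibre term (orange and purple), open where the edgeR adjusted p is above 0.05. With the slow fibre term 30 of 31 points lie nearer 0 with all animals, the exception being Slc22a5, and Etfb alone crosses 0, at 0.06 under the last fit.

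The size of the change in each animal was set against the change of the slow fibre sum. Over 56 animals, r was positive with an adjusted permutation p of at most 0.05 for 27 of 31 members, against 25.4% of all genes; the median r was 0.43 over the members and -0.03 over all genes. It was highest for Fabp3 (r = 0.82, rho = 0.77), Mlycd (r = 0.68, rho = 0.68) and Cpt1b (r = 0.63, rho = 0.63), each with an unadjusted permutation p of 1e-05, the smallest 100000 resamples can give, and adjusted p-values of 0.00015 for r and 0.00028 for rho over all genes. It was lowest for Slc22a5 (r = -0.07, adjusted p = 0.67) and Cd36 (r = 0.11, adjusted p = 0.50). This order changed without the low Acta1 animals: Cd36 had 0.46 and Slc22a5 0.23, and the lowest were Ucp3 (from 0.39 to -0.14), Crat (from 0.51 to 0.06) and Acacb (from 0.38 to 0.12), all among the 27. For Fabp3 r was 0.68 in the 46 animals without a low Acta1 limb, 0.76 without the 2 animals furthest from the median of the slow fibre change, 0.90 in females and 0.73 in males. For Cpt1b it was 0.83 in females and 0.36 in males, and for Acadm 0.79 and 0.23. In males r was below 0 for Acsl1 (-0.21), Slc22a5 (-0.13), Hibch (-0.12), Cd36 (-0.12), Acacb (-0.04) and Acads (-0.009). Of these, Acacb and Acads were among the 27. In females r was 0.40, 0.03, 0.62, 0.36, 0.69 and 0.62 for the same genes. The other members had r above 0 in males. Whether the sexes differ in r was not tested. Both measures come from the same libraries.

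The change of the adipocyte sum gave another order. Here r was positive with an adjusted permutation p of at most 0.05 for 2 of 31 members, against 32.3% of all genes: Cd36 (r = 0.41, adjusted p = 0.0037; rho = 0.32, adjusted p = 0.029) and Lpl (r = 0.38, adjusted p = 0.0077; rho = 0.35, adjusted p = 0.018). The next was Acsl1 (r = 0.24, adjusted p = 0.10). Without the 2 animals furthest from the median of the adipocyte change r was 0.29 for Cd36 and 0.29 for Lpl, and among the 46 animals without a low Acta1 limb it was 0.43 and 0.39. Within sets of animal numbers Cd36 had r of 0.36 in animals 1 to 20, -0.21 in 21 to 40 and 0.74 in 41 to 59, and Lpl had 0.10, 0.0019 and 0.65. A negative r passed for 7 members (22.6%), a smaller share than the 31.5% of all genes, lowest for Crat (r = -0.60, rho = -0.67) and Ucp3 (r = -0.56, rho = -0.62), with adjusted p-values between 4.1e-05 and 7.2e-05. Among the 46 animals without a low Acta1 limb r was -0.53 for Crat and -0.45 for Ucp3, while Fabp3, another of the 7, went from -0.44 to 0.08.

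The level in the control limb of an animal said little about the level in its immobilized limb for most members. The same held for all genes, with a median r of 0.07, beside 0.09 over the members. Only Pdk4 passed by r (r = 0.50, adjusted permutation p = 0.0018; rho = 0.52, adjusted p = 0.0016), where 8.07% of all genes had a positive r that passed. Ucp3 passed by rho (rho = 0.47, adjusted p = 0.0058) and not by r (r = 0.26, adjusted p = 0.27). Acaa2 came next (r = 0.19, adjusted p = 0.52), and Mlycd (r = -0.08) and Fabp3 (r = -0.17, adjusted p = 0.57) were lowest. Among the 46 animals without a low Acta1 limb r was 0.74 for Pdk4, 0.72 for Ucp3, 0.45 for Crat and 0.02 for Fabp3. The median there was 0.24 over the members and 0.18 over all genes. Without the 2 animals furthest from the median r was 0.50 for Pdk4 and 0.37 for Ucp3. Male 36 had the highest Pdk4 and the highest Ucp3 of the males in both limbs, at 1919 and 2695 CPM of Pdk4 and 415 and 418 CPM of Ucp3.

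**Figure D5:**
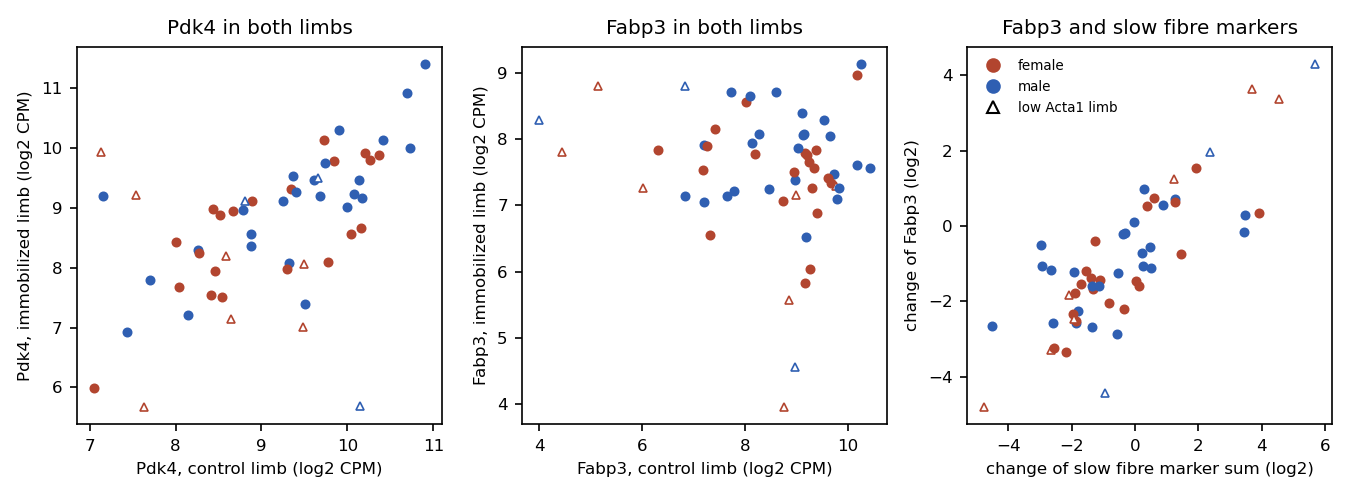
Each point is 1 of 56 animals, with females in red, males in blue and open triangles for a low Acta1 limb: Pdk4 and Fabp3 in the immobilized limb (vertical axes, log2 CPM) against the control limb (horizontal axes), and the change of Fabp3 against the change of the slow fibre marker sum (log2, immobilized minus control). The points of Pdk4 run upward with r = 0.50, Fabp3 shows no such order between limbs with r = -0.17, and its change follows that of the slow fibre markers with r = 0.82.

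The animal numbers fall into 3 runs that hold both sexes, and the effect was also fitted within each. In animals 1 to 20, 17 of 31 members passed, and in animals 21 to 40 and 41 to 59, 0 and 0 by edgeR, with 25, 6 and 13 at an unadjusted p of at most 0.05, which 25.4%, 9.3% and 9.73% of all genes reached. These runs hold 20, 18 and 18 animals, and of all genes 1108, 1 and 2 passed in them. All 31 members were below 0 in each run, with medians of -0.45, -0.35 and -0.35.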

How the data were processed

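Both gastrocnemius muscles of 56 mice were sequenced from total RNA by a stranded kit with removal of ribosomal RNA, per the labels' protocols. The authors deposited raw counts by gene symbol, with the females and the males in separate tables. Not given in the sources used here are the aligner, the counter, its strand setting and the build. Counts were analysed in R 4.3.3 with edgeR 4.0.16: genes were kept by its filter on low counts, libraries scaled by TMM, and a quasi-likelihood model fitted to all 112 libraries with animal as a term and an effect of immobilization in each sex. P-values were adjusted by Benjamini-Hochberg over all genes tested, with a threshold of 0.05. The sexes were compared within 56 control and 56 immobilized libraries without the animal term.

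The limbs compared are of the same mouse, so the animal number pairs them. The correlation of deviations from the group mean had a median of 0.364 between limbs of an animal and 0.0066 between limbs of different animals, exceeded 0.1 in 45 of 56 animals and was lowest at -0.435; 36 of 56 control limbs correlated best with the other limb of their own animal. No pair of libraries held identical counts. Low Acta1 means under 50% of the median CPM. Log2 CPM used a prior count of 2, and marker sums a pseudocount of 1 CPM.

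Correlations over animals used 100000 permutations, two-sided, with adjustment over all genes for each of 3 relations. Ratios of member pairs used 100000 sign changes. Alternatives were median-of-ratios scaling, library size without mitochondrial and the top 20 genes, DESeq2 1.42.0, limma voom 3.58.1, no filter, a filter at a mean of 1 CPM, no animal term, other Acta1 limits, marker covariates, males 15 and 16, whose limbs matched across the animals, left out, sets of animal numbers and each sex alone. Reads carry no molecular identifiers, so errors cover what the counts show. The members and gene lists were chosen with earlier results of these data known. By rule, levels were given for the 2 members of each step and up to 6 further ones with the smallest p, the member with the least negative change and the one with the smallest p between the sexes, and up to 3 genes were named from each other list. A gene that this rule would name is not reported here.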

Additional observations from a re-analysis of the deposited data

How the results depend on the processing

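With both sexes averaged, 26 of 31 members fell, and 22 to 26 did under median-of-ratios scaling, the other library sizes, DESeq2, limma voom, no filter, a filter at a mean of 1 CPM, without low Acta1 animals, the adipocyte and slow fibre covariates, without animals 15 and 16 and without the replicate block. Of all genes 10.4% fell with both sexes averaged, and 3.76% to 16.5% did under these alternatives. The count of members was 17 in animals 1 to 20 (5.23% of all genes) and 0 in animals 21 to 40 and in 41 to 59 (0% and 0%). In females 7 fell, beside 2.47% of all genes. With the share of all genes that fell in brackets, the count was 3 with no filter (0.273%) and 11 with DESeq2 (4.61%). It was 13 without low Acta1 animals (9.1%), 0 in animals 21 to 40 and in 41 to 59 (0% and 0%), and 0 with females fitted alone (0.252%). In males 12 fell, beside 1.12% of all genes. The count was 2 with no filter (0.158% of all genes), 19 with DESeq2 (2.13%) and 19 with the adipocyte covariate (4.83%). It was 0 in each of the 3 sets of animals (0.00874%, 0% and 0%). Without filter more genes were tested; the cause of the other shifts was not tested. Without the block of paired limbs 24 members fell in the mean, 7 in females and 18 in males, beside 10.4%, 2.52% and 2.33% of all genes. Among the 46 animals the count was 26, beside 16.5% of all genes, and 20 to 27 under its alternatives, beside 7.33% to 16.8%. It was 27 for an Acta1 limit of 25% (16.8% of all genes) and 20 for one of 75% (13%).

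Over all genes, calls in females were 543, with 145 without filter, 1145 with DESeq2, 2017 without low Acta1 animals and 84 with females alone. In males they were 263, with 109 without filter, 576 with DESeq2, 454 with limma voom, 589 without the block, 1071 without low Acta1 animals, 1196 with the adipocyte covariate and 582 with males alone. In the mean they were 2371, and 3814 without low Acta1 animals. By sex they were 190 in control limbs (120 to 836) and 483 in immobilized limbs (163 to 1743). The relation of Cd36 to the adipocyte change had the opposite sign in animals 21 to 40, at -0.205.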
